A study of Mus musculus with 30 samples.

Results

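The genes described here were 10 well-known targets of the hypoxia response: Vegfa, Adm, Slc2a1, Ldha, Pgk1, Car9, Bnip3, Ndrg1, Egln3 and Ankrd37. They were listed by gene symbol as known targets, with earlier results of these data known, and all 10 were found among the 21841 genes of the count table. All 10 also passed the filter on low counts, which left 13663 genes to be tested. RNA was sequenced from spontaneous mammary tumors of MMTV-PyMT mice whose strain is given as FVB/N-Tg(MMTV-PyVT)634Mul/J and whose genotype label reads WT, in which the MMTV promoter drives the polyoma middle T oncogene in mammary epithelium. There were 30 libraries in 6 groups of 5, and the series' design text counts 30 mice. By the labels every animal was treated by intraperitoneal injection and sampled at 72 h. The groups were vehicle, 5-fluorouracil (5-FU, 40 mg/kg every 4 days), gemcitabine (64 mg/kg every 7 days), KCL-HO-1i (25 µmol/kg daily) and its combinations with each chemotherapy at the same doses, KCL-HO-1i/5-FU and the corresponding KCL-HO-1i/gemcitabine. The study's own text gives a shorter treatment and a lower gemcitabine dose for tumors of this kind, and the labels give no age. KCL-HO-1i blocks heme oxygenase-1 (Hmox1), which breaks down heme, whereas 5-FU and gemcitabine are cytotoxic analogs of pyrimidines.

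Cells sense oxygen through the hypoxia-inducible factors (HIF). With oxygen present, prolyl hydroxylases mark the HIF alpha subunits, the von Hippel-Lindau protein captures them and they are destroyed. With little oxygen the alpha subunits persist, pair with the beta subunit Arnt and bind DNA at a short core sequence, turning on genes for vessel growth, glucose uptake, glycolysis, acid handling and mitochondrial turnover. Tumors often outgrow their vessels, so that these genes are commonly read as a record of poorly oxygenated tissue. Because HIF alpha is controlled mainly at the protein level, its mRNA need not follow its targets.

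Library totals ran from 10067577 to 13622264 counts, and values are given as CPM (each gene's share of a library's counts, scaled to a fixed total) after TMM scaling. All 12 luminal mammary epithelial markers were detected in every library, with a summed level between 3042 and 6712 CPM. Markers of other tissues were uneven: the 12 adipocyte and 12 skeletal muscle markers summed to 9549 and 4500 CPM in KCL-HO-1i replicate 4 and to 9577 and 13480 CPM in KCL-HO-1i/gemcitabine replicate 2, against group medians of 49.5 and 11.6 CPM in vehicle. The share of mitochondrial counts lay between 1.44% and 9.69%, and was highest in KCL-HO-1i replicate 4. In bulk tumor RNA, fewer cells that express a gene and less of its RNA per cell cannot be told apart.

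The core bound by HIF was searched in the form ACGTG only, and other forms were not searched. It is shown here because the genes were listed as HIF targets. The search covered both strands of RefSeq promoter windows on GRCm38.p6, from 250 bases before to 50 bases after each start site. Windows were found for 9 of the 10 genes, Ndrg1 having none in the table. The core was present in 8 of their 11 windows, against 19.6% of the 32851 windows of all genes. Of the genes with a window, only Adm had no match to this form. Vegfa had its match in the second of its 2 windows, which lies inside the gene, and none in the window at its 5′ end. The windows of Ldha and Ankrd37 also lay inside the spans of those genes in GENCODE M21. The stretches below run 5′ to 3′ on the strand of the gene, and capitals mark the core, which reads CACGT where it lies on the opposite strand.
Slc2a1, 36 bases before the start site, chr4:119108699-119108723, plus strand: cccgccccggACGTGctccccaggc
Pgk1, 150 bases before, chrX:106186940-106186964, plus strand: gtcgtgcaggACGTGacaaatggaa
Ldha, 47 bases before, chr7:46845747-46845771, plus strand: cccagcctacACGTGggttcccgca
Egln3, 229 bases before, chr12:54204089-54204113, minus strand: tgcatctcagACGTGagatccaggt
Car9, 18 bases before, chr4:43506998-43507022, plus strand: atttccgatgCACGTacagcccgtc
Bnip3, 107 bases before, chr7:138909599-138909623, minus strand: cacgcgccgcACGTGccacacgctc
Ankrd37, 6 bases before, chr8:45999842-45999866, minus strand: gtgtttgggtACGTGaggccgcagc
Vegfa, 211 bases before, chr17:46025360-46025384, minus strand: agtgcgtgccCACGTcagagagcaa
The distance to the start site varied. The match in Car9 lay 18 bases before it, and those of Egln3 and Vegfa over 200 bases before it, while Ankrd37 had the match shown at 6 bases and another at 241 bases. The Ldha window held 5 matches counted over both strands, of which 2 pairs were a single palindromic CACGTG read on each strand. A match describes the letters of these windows, which were not matched to the background for base composition, and says nothing of binding.

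Expression of the 10 genes covered a wide range. Per kilobase of exon (GENCODE M21, all exons of a gene merged), the median level over the 30 tumors was highest for Ldha, at 529 CPM per kb, followed by Pgk1 at 168, Egln3 at 52.7, Ndrg1 at 33.7, Slc2a1 at 29.5 and Bnip3 at 17.4 CPM per kb. The lowest were Vegfa at 9.41, Adm at 5.05, Car9 at 1.46 and Ankrd37 at 0.978 CPM per kb. Both glycolytic enzymes thus led the list, and Ankrd37, an ankyrin repeat protein, was read by few fragments in most tumors.

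No gene of the 10 differed between the 6 groups past an adjusted p of 0.05 (edgeR's quasi-likelihood F-test with Benjamini-Hochberg adjustment over all 13663 genes), where 0.651% of all genes did. At an unadjusted p under 0.05 there was 1 of 10, Slc2a1 (adjusted p = 0.267 by edgeR), against 18.7% of all genes. The next smallest edgeR values belonged to Adm (adjusted p = 0.284) and Egln3 (adjusted p = 0.304). DESeq2 and limma-voom also called 0 of 10 in this comparison, with 3 of 10 at an unadjusted p under 0.05 in each, against 23.7% of all genes by DESeq2 and 26.8% by limma-voom.

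Levels varied widely from tumor to tumor within groups. With group means removed, the SD of log2 CPM between libraries had a median of 0.96 over the 10 genes and of 0.33 over all genes tested. Adm had an SD of 1.36 on this scale, above 94.8% of all genes, and Ankrd37 one of 1.33, above 94.6%. Slc2a1 and Ldha were steadier, with 0.47 and 0.49, which placed them above 64.0% and 65.5% of genes. Of the whole variation in log2 CPM, the groups accounted for a median of 16.5% over the 10 genes and 20.5% over all genes, where equal group means would give 17.2%. The share ranged from 4.94% for Ndrg1 to 32.7% for Egln3 and 34.2% for Ankrd37.

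The same few tumors held the highest values of most genes. Vehicle replicate 3 was among the 5 highest libraries for 9 of the 10 genes. Gemcitabine replicates 1 and 3 were among them for 8 each, and KCL-HO-1i replicate 4 and KCL-HO-1i/5-FU replicate 5 for 5 each. At the other end, 5-FU replicate 4 was among the 5 lowest for 6 genes, and KCL-HO-1i replicate 5 and KCL-HO-1i/5-FU replicates 2 and 3 for 5 each. High tumors therefore occurred in vehicle, in gemcitabine and in groups with KCL-HO-1i, and the 5-FU group was the one with no library above 8.11 CPM of Adm or 46.3 CPM of Vegfa.

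**Figure D1:**
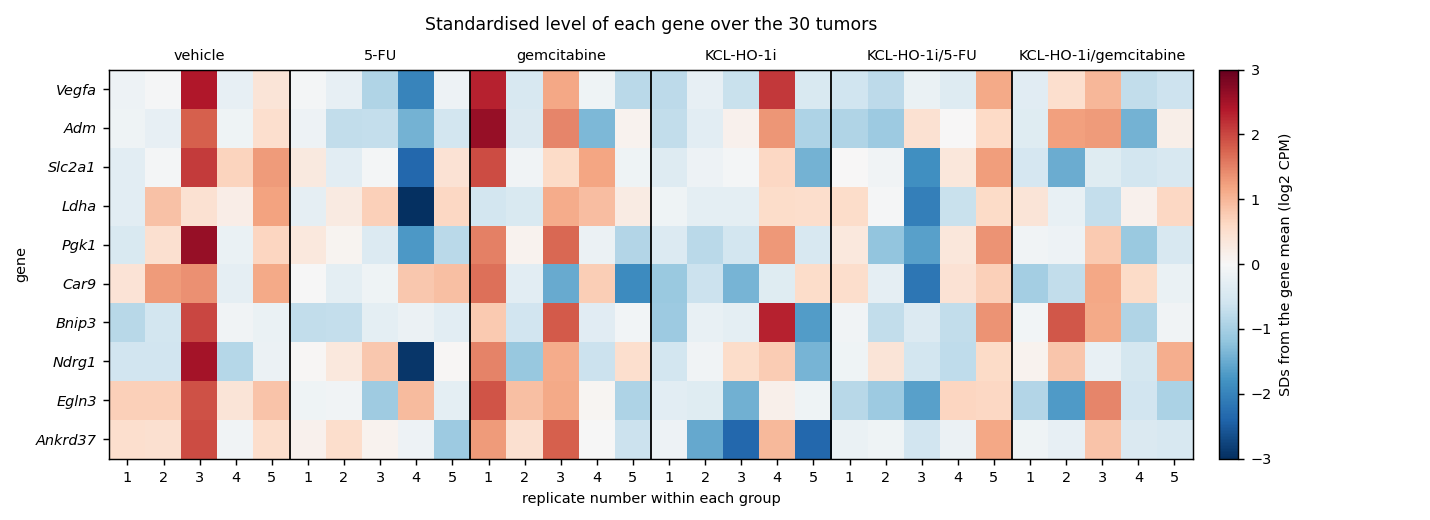
Standardised level of each of the 10 genes (rows) in each of the 30 tumors (columns, by group and replicate number), as SDs of log2 CPM from the mean of the gene. Red columns, in which most genes are high, are vehicle 3, gemcitabine 1 and 3, KCL-HO-1i 4 and KCL-HO-1i/5-FU 5, and the bluest, with 6 genes among its 5 lowest libraries, is 5-FU 4.

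Vegfa, the secreted growth factor that draws in new vessels, was at 42.7, 46.9, 272, 40.5 and 63.7 CPM in vehicle replicates 1 to 5 and at 46.3, 40.2, 24.8, 11.3 and 42.6 CPM in 5-FU replicates 1 to 5. It was at 253, 33.9, 111, 43.8 and 26.8 CPM under gemcitabine and at 26.97, 40.2, 29.6, 221 and 34.3 CPM under KCL-HO-1i. The combinations gave 30.9, 27.1, 41.8, 36.3 and 109 CPM with 5-FU and 37.7, 68.8, 97.99, 28.2 and 30.6 CPM with gemcitabine. All groups overlapped, most tumors lay near the overall median of 40.3 CPM, and single tumors in vehicle, gemcitabine and KCL-HO-1i stood above 200 CPM. The highest tumor held 24.1 times the level of the lowest.

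Adm encodes adrenomedullin, a secreted peptide that widens vessels. Among the genes with reads in every tumor, which leaves out Ankrd37, Adm had the widest range, with 47.1 times between lowest and highest tumor. Its values were 8.27, 7.34, 50.5, 8.23 and 15.02 CPM in vehicle, 8.11, 4.63, 4.67, 2.36 and 5.56 CPM under 5-FU and 110.1, 6.26, 37.1, 2.56 and 10.4 CPM under gemcitabine. They were 4.59, 6.86, 10.5, 32.6 and 3.88 CPM under KCL-HO-1i, 3.92, 3.26, 14.4, 9.55 and 16.5 CPM under KCL-HO-1i/5-FU and 6.67, 30.1, 31.4, 2.34 and 11.01 CPM under KCL-HO-1i/gemcitabine. The gemcitabine group held both the highest value of all tumors and one of the lowest, and every pair of groups overlapped.

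Slc2a1, the glucose transporter GLUT1, was at 95.3, 104, 223, 135 and 167 CPM in vehicle, 118, 95.1, 104, 46.4 and 124 CPM under 5-FU and 212, 102, 130.3, 161 and 101 CPM under gemcitabine. With the inhibitor it was at 92.7, 101, 104, 132 and 64.5 CPM under KCL-HO-1i, 107, 103, 56.02, 120.5 and 166 CPM under KCL-HO-1i/5-FU and 88.98, 63.16, 93.4, 87.9 and 90.3 CPM under KCL-HO-1i/gemcitabine. The 5 KCL-HO-1i/gemcitabine tumors, at 84.7 ± 12.2 (SD, n = 5) CPM, all lay below the 5 vehicle tumors (145 ± 51.97, SD, n = 5) and below the 5 gemcitabine tumors (141 ± 46.5, SD, n = 5). The other groups overlapped with vehicle.

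Ldha, which makes lactate from pyruvate, was among the more even of the 10 in log2 CPM, next to Slc2a1, with group means from 1532 CPM under KCL-HO-1i/5-FU to 1932 CPM in vehicle. Of the 30 tumors, 5-FU replicate 4 had 448 CPM and KCL-HO-1i/5-FU replicate 3 had 829 CPM, and all others lay between 1284 and 2408 CPM. Pgk1, the glycolytic phosphoglycerate kinase, was at 607 ± 390.4 (SD, n = 5) CPM in vehicle and at 340.1 ± 110.3 (SD, n = 5) CPM under 5-FU. Its highest tumors were vehicle replicate 3 at 1288 CPM, gemcitabine replicates 3 and 1 at 865 and 787 CPM, KCL-HO-1i/5-FU replicate 5 at 732 CPM and KCL-HO-1i replicate 4 at 720.2 CPM. These were the same 5 tumors that stood out above.

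Car9, the cell surface carbonic anhydrase that handles acid, was low throughout. It was at 4.79, 9.01, 9.67, 2.88 and 8.11 CPM in vehicle and at 1.51, 2.16, 1.19, 2.69 and 5.28 CPM under KCL-HO-1i, so that 4 of 5 inhibitor tumors lay below every vehicle tumor and the fifth did not. The group means were 4.56 ± 1.91 (SD, n = 5) CPM under 5-FU, 4.54 ± 4.64 (SD, n = 5) CPM under gemcitabine, 3.92 ± 2.18 (SD, n = 5) CPM under KCL-HO-1i/5-FU and 4.09 ± 2.80 (SD, n = 5) CPM under KCL-HO-1i/gemcitabine. Gemcitabine replicate 1 had the highest level, 11.9 CPM, yet gemcitabine replicate 3, high for 8 other genes, had 1.10 CPM.

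Bnip3, a mitochondrial protein that marks mitochondria for removal, was between 15.8 and 44.6 CPM in most tumors. It reached 206 CPM in KCL-HO-1i replicate 4, 171 CPM in vehicle replicate 3, 157 CPM in KCL-HO-1i/gemcitabine replicate 2, 155 CPM in gemcitabine replicate 3 and 112 CPM in KCL-HO-1i/5-FU replicate 5. The tumors of KCL-HO-1i replicate 4 and KCL-HO-1i/gemcitabine replicate 2 are those with the highest adipocyte and muscle markers, whose part in the level of Bnip3 was not tested. The group means lay between 35.4 ± 5.91 (SD, n = 5) CPM under 5-FU and 73.8 ± 53.7 (SD, n = 5) CPM under KCL-HO-1i/gemcitabine.

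Ndrg1, a stress-responsive gene named for its regulation by Myc, had 1028 CPM in vehicle replicate 3, while the other 4 vehicle tumors lay between 135 and 205 CPM. Its lowest value, 38.4 CPM, was in 5-FU replicate 4. Ankrd37 was at 3.01, 2.98, 14.1, 1.53 and 3.12 CPM in vehicle, and in KCL-HO-1i replicates 3 and 5 it had 0 reads, which allows up to 0.224 and 0.247 CPM (3 reads of the library, counting error only). The third low tumor, KCL-HO-1i replicate 2, had 3 reads, whereas KCL-HO-1i replicate 4 had 50 reads, or 4.97 CPM.

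Egln3 encodes an oxygen-sensing prolyl hydroxylase that is itself induced by HIF. It was at 239.7, 242, 523, 195 and 265 CPM in vehicle, 139, 141, 75.3, 280.2 and 125 CPM under 5-FU and 513, 271, 317, 158 and 83.04 CPM under gemcitabine. With the inhibitor it was at 123, 119, 58.98, 166 and 139.8 CPM under KCL-HO-1i, 88.8, 74.7, 52.6, 229 and 228 CPM under KCL-HO-1i/5-FU and 85.2, 49.98, 393, 105 and 82.1 CPM under KCL-HO-1i/gemcitabine. The vehicle tumors all lay above the 5 KCL-HO-1i tumors, but 2 of the KCL-HO-1i/5-FU tumors and 1 of the KCL-HO-1i/gemcitabine tumors reached into the vehicle range.

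**Figure D2:**
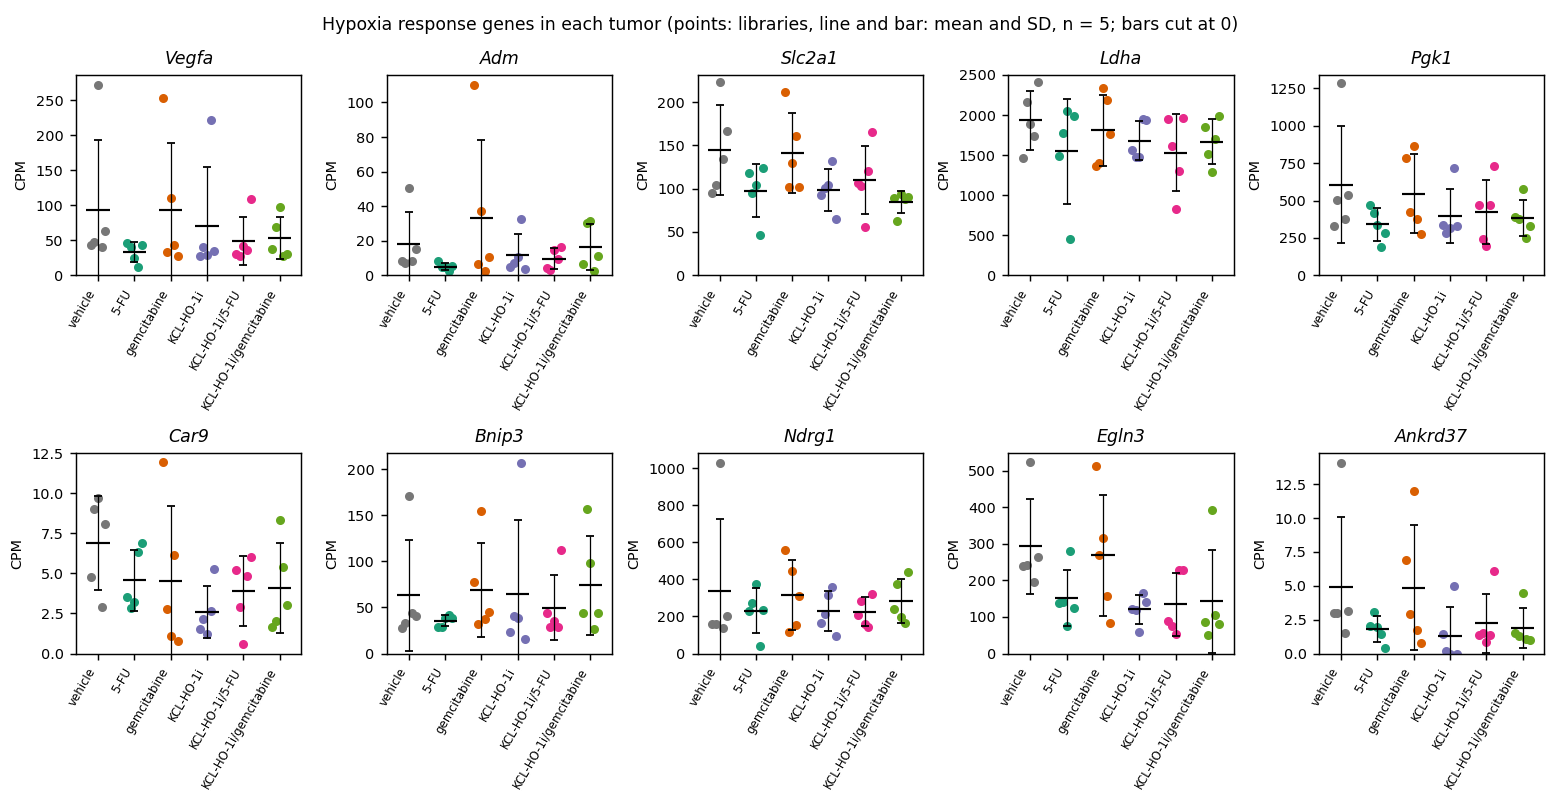
Level of each gene in CPM (linear vertical axis) in the 5 tumors of each of the 6 groups (horizontal axis). Points are libraries in order of replicate number, the line is the mean and the bar the SD, cut at 0. In vehicle, replicate 3 stands far above the others for Vegfa, Bnip3 and Ndrg1, whereas Slc2a1 under KCL-HO-1i/gemcitabine sits at 63.16 to 93.4 CPM, below all vehicle tumors.

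The effect of each chemotherapy alone was compared with vehicle first. Under 5-FU all 10 genes had lower fitted levels than in vehicle, with a median log2 fold change of -0.83 against 0.00 over all genes tested. The group median of Ndrg1 went the other way, at 233 CPM under 5-FU and 161 CPM in vehicle, whose replicate 3 had 1028 CPM. In the adjusted test 0 of 10 passed, as did 0% of all genes. At an unadjusted p under 0.05 there were 4 of 10, all lower, against 2.24% of all genes lower and 1.65% higher. These were Vegfa, with a log2 fold change of -1.496 and SE of 0.69 (adjusted p = 0.999 by edgeR), Adm at -1.82 (SE 0.85), Pgk1 at -0.84 (SE 0.39) and Slc2a1 at -0.57 (SE 0.28). The values rested on single tumors: without vehicle replicate 3 the count at an unadjusted p under 0.05 was 0 and the difference of Vegfa was -0.56, and without 5-FU replicate 3 the count was also 0. Without 5-FU replicate 4 it was 1, and this was Egln3. DESeq2 and limma-voom called 0 of 10 as well. DESeq2 had the same 4 genes at an unadjusted p under 0.05, against 4.48% of all genes in either direction, whereas limma-voom had 2, Car9 and Egln3, against 7.24%.

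Under gemcitabine 7 of the 10 genes were lower and 3 higher than in vehicle, with a median log2 fold change of -0.06 against 0.03 over all genes. None of the 10 was called by edgeR, DESeq2 or limma-voom, as for 0% of all genes by edgeR, and 0 of 10 had an unadjusted p under 0.05 by edgeR, against 2.05% of all genes higher and 1.78% lower. By limma-voom 1 of 10 had, namely Car9, against 4.45% of all genes in either direction. Gemcitabine replicate 1 had 253 CPM of Vegfa and replicate 3 had 111 CPM, beside 272 CPM in vehicle replicate 3, and the group mean of Vegfa was 93.7 ± 95.2 (SD, n = 5) CPM beside 93.2 ± 101 (SD, n = 5) CPM in vehicle.

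The next question was what inhibition of heme oxygenase-1 did alone. Under KCL-HO-1i 9 of 10 genes had lower fitted levels than in vehicle, with a median log2 fold change of -0.58 against -0.01 over all genes. Among the 9, Ndrg1 had a higher group median, at 213 CPM against 161 CPM in vehicle. By edgeR 0 of 10 were called, as were 0% of all genes. Unadjusted p values were under 0.05 for 2 of 10, both lower, against 2.08% of all genes lower and 7.36% higher. Egln3 had a log2 fold change of -1.27 with SE 0.52 (adjusted p = 0.431 by edgeR), with no overlap between the groups, a separation seen for 0.417% of all genes in that direction. Car9 differed by -1.43 (SE 0.63, adjusted p = 0.483 by edgeR), with overlap. Without vehicle replicate 3 or without KCL-HO-1i replicate 3 the count at an unadjusted p under 0.05 was 0, and without KCL-HO-1i replicate 4 it was 6 and added Vegfa, Slc2a1, Pgk1 and Ankrd37. DESeq2 had 3 of 10 and limma-voom 5 of 10 at that level, all lower, against 10.4% and 11.9% of all genes in either direction by the same tools, and neither called one of the 10.

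In both combinations most of the genes again had lower fitted levels than in vehicle, and the 5 vehicle libraries are shared by all of these comparisons. Group medians of Ndrg1 and Adm were higher, however, at 210 and 9.55 CPM with 5-FU and 241 and 11.01 CPM with gemcitabine. In vehicle they were 161 and 8.27 CPM. For KCL-HO-1i/5-FU all 10 fitted levels were lower, with a median log2 fold change of -0.70 against 0.01 over all genes. By edgeR 0 of 10 were called, as for 0% of all genes. At an unadjusted p under 0.05 there was 1 of 10, against 7.84% of all genes lower and 9.79% higher. This was Egln3, at -1.12 (SE 0.52, adjusted p = 0.263 by edgeR), and the count was 0 without vehicle replicate 3 or without replicates 1, 2 or 3 of the combination, and 2 without its replicate 5. DESeq2 and limma-voom each had 1 of 10 at that level, against 19.2% and 19.3% of all genes. For KCL-HO-1i/gemcitabine 9 of 10 were lower, with a median of -0.71 against 0.02, 0 of 10 called as for 0% of all genes, and again 1 of 10 at an unadjusted p under 0.05 against 8.04% of all genes lower and 11.7% higher. Slc2a1 differed there by -0.77 (SE 0.28, adjusted p = 0.122 by edgeR) with no overlap, a separation seen for 1.84% of all genes in that direction. DESeq2 and limma-voom gave Slc2a1 adjusted p values of 0.0671 and 0.0639, and limma-voom called 1 of the 10 in this comparison, Egln3, where edgeR gave an adjusted p of 0.274. Limma-voom called 9.59% of all genes there. At an unadjusted p under 0.05 DESeq2 had 2 of 10 and limma-voom 3 of 10, against 21.3% and 28.7% of all genes.

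**Figure D3:**
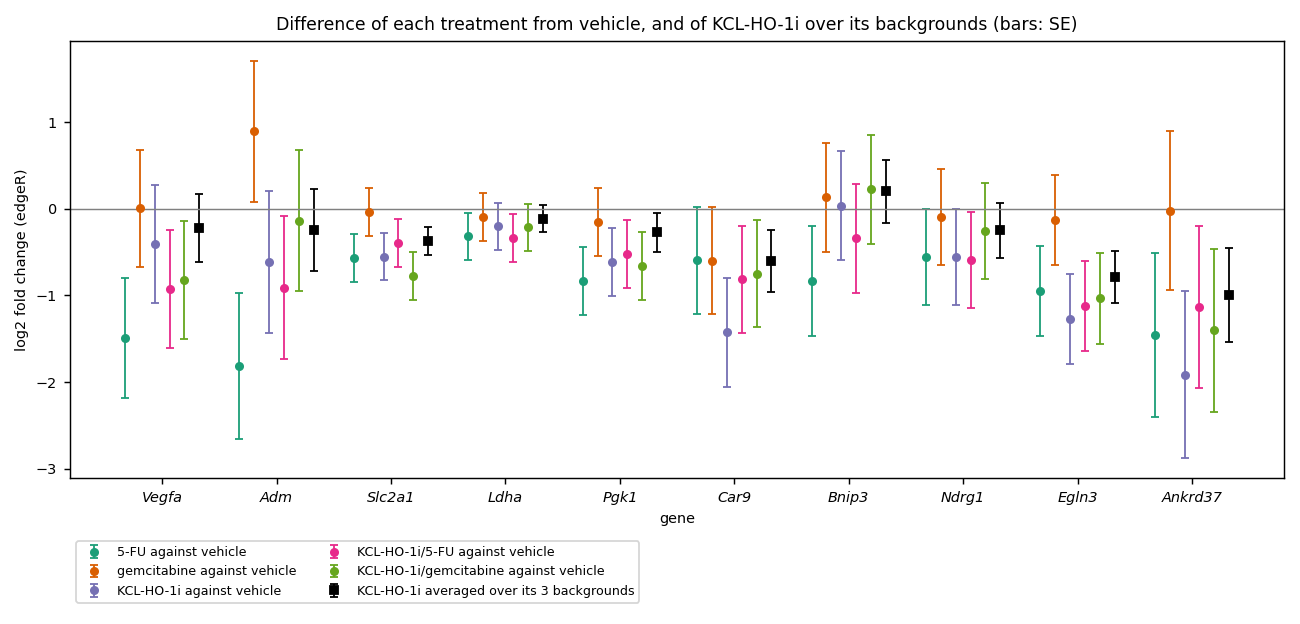
Log2 fold change (vertical axis, edgeR) of each gene (horizontal axis) in each treated group against vehicle, and of KCL-HO-1i averaged over vehicle, 5-FU and gemcitabine backgrounds (black squares). Bars are SE. Gemcitabine points lie near 0 for most genes, Egln3 is at -1.27 under KCL-HO-1i, and none of the values passed the adjusted test.

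Adding the inhibitor was also set against the matching background. Averaged over its 3 backgrounds, KCL-HO-1i gave 0 called genes of 10, where 0.0586% of all genes were called, and 2 of 10 at an unadjusted p under 0.05 against 9.22% of all genes lower and 13.7% higher. Slc2a1 had a log2 fold change of -0.37 with SE 0.16 (adjusted p = 0.162 by edgeR), with 11 of 15 inhibitor tumors below the mean of their background. The backgrounds differed in sign for Slc2a1, with -0.55 against vehicle, 0.18 against 5-FU and -0.74 against gemcitabine. Egln3 differed by -0.78 (SE 0.30, adjusted p = 0.123 by edgeR), with 12 of 15 below, and its adjusted p was 0.0621 by DESeq2 and 0.0673 by limma-voom. These tools had 2 of 10 and 3 of 10 at an unadjusted p under 0.05, against 24.3% and 20.8% of all genes. Without vehicle replicate 3 or gemcitabine replicate 1 only Egln3 had an unadjusted p under 0.05, and without KCL-HO-1i/gemcitabine replicate 3 there were 4 of 10.

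By edgeR the other members gave smaller averages against their error. Vegfa was at -0.22 (SE 0.39), Adm at -0.25 (SE 0.47), Ldha at -0.11 (SE 0.16) and Pgk1 at -0.27 (SE 0.23). Car9 was at -0.60 (SE 0.36), Ndrg1 at -0.25 (SE 0.32) and Ankrd37 at -0.99 (SE 0.54), and Bnip3 alone had a positive value, 0.21 (SE 0.36). Each interval of 2 SE around these edgeR values included 0. For Ankrd37 the tools differed, with -1.49 by limma-voom (adjusted p = 0.0567) and -0.99 by DESeq2 (adjusted p = 0.225). It was among the limma-voom genes at an unadjusted p under 0.05.

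Against 5-FU alone, KCL-HO-1i/5-FU gave 6 genes higher and 4 lower, and 0 of 10 at an unadjusted p under 0.05, against 6.18% of all genes higher and 5.26% lower. Against gemcitabine alone, KCL-HO-1i/gemcitabine gave 9 of 10 lower and 1 of 10 at that level, against 6.51% of all genes lower and 6.94% higher. This was Slc2a1 once more, at -0.74 (SE 0.28, adjusted p = 0.296 by edgeR), with no overlap between the groups, as for 0.959% of all genes in that direction. Without gemcitabine replicate 1 the count was 0. DESeq2 had 1 of 10 and limma-voom 2 of 10 at that level, against 15.7% and 14.4% of all genes. Neither combination differed from KCL-HO-1i alone in any of the 10 at an unadjusted p under 0.05 by edgeR, against 7.47% of all genes higher and 9.43% lower with 5-FU and 1.2% and 1.46% with gemcitabine. Limma-voom had 1 of 10 in each, Ankrd37, against 18.1% and 8.34% of all genes in either direction.

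The interaction terms asked whether the inhibitor acted differently beside a chemotherapy than alone. With 5-FU all 10 interaction values were positive, with a median of 0.95 on the log2 scale against 0.00 over all genes, yet 0 of 10 had an unadjusted p under 0.05, against 4.03% of all genes higher and 4.51% lower. Without KCL-HO-1i replicate 4 that count was 4 of 10, and without vehicle replicate 3 it was 0. The vehicle group enters this term for every gene, and its replicate 3 was among the 5 highest libraries for 9 of the 10. With gemcitabine 7 interaction values were positive and 3 negative, and 0 of 10 had an unadjusted p under 0.05, against 0.644% and 0.695% of all genes. Without gemcitabine replicate 1 that count was 1 of 10. No member was called by edgeR, DESeq2 or limma-voom in these terms or in the 4 comparisons of the combinations with a single agent, and edgeR called 0% of all genes there. By limma-voom 2 of 10, Car9 and Ankrd37, had an unadjusted p under 0.05 in each interaction, against 14.2% of all genes with 5-FU and 3.31% with gemcitabine, and by DESeq2 0 of 10.

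Across tumors the genes moved together to differing degrees. Over the 45 pairs the median Pearson r of log2 CPM was 0.53 across the 30 libraries (median Spearman rho 0.373), with 25 pairs above 0.5 and 3 below 0. With group means removed the median r was 0.51. Vegfa was most like Pgk1 (r = 0.86, rho = 0.74) and Adm (r = 0.86, rho = 0.71). Ldha had a median r of 0.14 with the other genes, and Car9 one of 0.30, though Car9 went with Egln3 at 0.64 (rho 0.593). These are descriptions over libraries that share their depth scaling and tissue composition, and without the 2 tumors farthest from the median of the first gene of a pair the median r was 0.42.

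**Figure D4:**
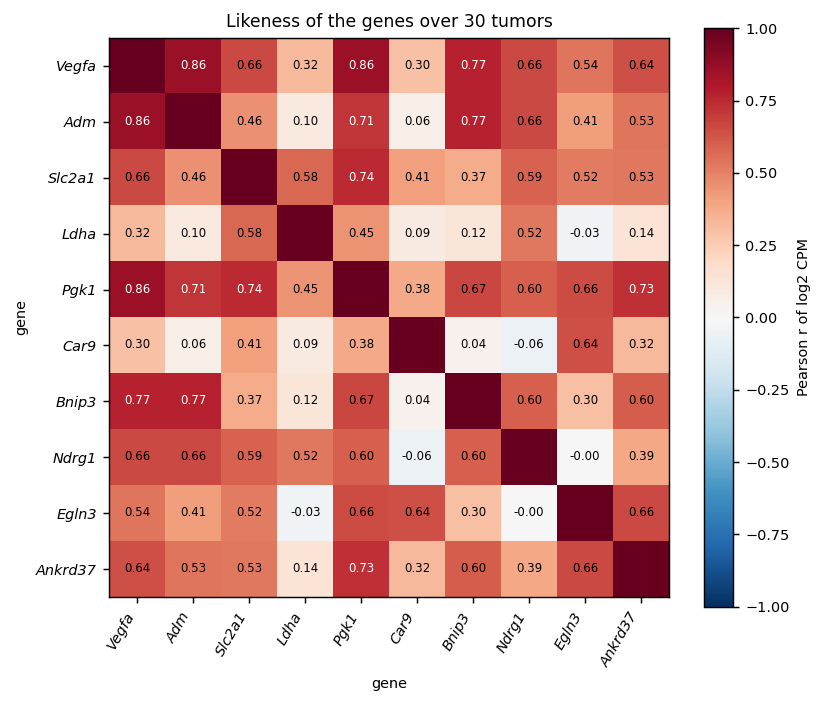
Pearson r of log2 CPM over 30 tumors for each pair of the 10 genes (both axes list the genes, color and number give r). Vegfa, Adm, Pgk1 and Bnip3 form a set of higher values, from 0.67 to 0.86, and Slc2a1 and Ankrd37 reach 0.74 and 0.73 with Pgk1. Ldha and Car9 lie near 0 with several genes, and Car9 is closest to Egln3 at 0.64.

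Egln3 and Car9 had the most negative r with the markers of macrophages and fibroblasts among the 10 genes. Over the 30 libraries, log2 CPM of Egln3 had r = -0.82 (rho -0.822) with the mean log2 CPM of 12 macrophage markers, -0.79 with 12 fibroblast markers and -0.66 with 12 endothelial markers. Car9 had r = -0.68 with macrophage, -0.70 with fibroblast and -0.67 with adipocyte markers. Vegfa had r = -0.33 with the macrophage markers, while Pgk1, Ankrd37 and Slc2a1 lay between, at -0.50, -0.51 and -0.43 with macrophage and -0.52, -0.48 and -0.52 with fibroblast markers. Adm, Bnip3, Ndrg1 and Ldha lay between -0.17 and 0.080 with both. Slc2a1 and Ldha also ran with the luminal epithelial markers, at r = 0.65 and 0.59. Leaving out the 2 libraries farthest from the median of the markers gave -0.79 for Egln3 with macrophages and 0.53 for Slc2a1 with luminal markers.

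The levels of these markers were then set beside the groups. Of 12 macrophage markers 0 were called among the 6 groups by edgeR and 7 had an unadjusted p under 0.05, against 18.7% of all genes, and for the inhibitor average 0 were called and 9 had such a p, all higher, against 13.7% of all genes higher. Of 12 fibroblast markers 0 were called in either test, with 9 and 12 at that level. Among the 6 groups 9 of 12 skeletal muscle and 1 of 12 adipocyte markers were called, against 0.651% of all genes. For the inhibitor average 0 of either list were called, and all 12 of each had an unadjusted p under 0.05, all higher. The summed level of the macrophage markers lay between 101 and 329 CPM in vehicle, 194 and 519 CPM under 5-FU and 137 and 667 CPM under gemcitabine. It lay between 309 and 716 CPM under KCL-HO-1i, 329 and 853 CPM under KCL-HO-1i/5-FU and 413 and 750 CPM under KCL-HO-1i/gemcitabine. Cd163 was at 0 in 5-FU replicate 4 and gemcitabine replicate 3, and Lyve1 in 5-FU replicate 4 and KCL-HO-1i/5-FU replicate 5. Fibroblast markers summed to 225 to 1373 CPM in vehicle and to 1010 to 16155 CPM under KCL-HO-1i/gemcitabine, with Lum at 0 in vehicle replicate 3. Their part in the levels of Egln3, Car9 and Slc2a1 was not tested.

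**Figure D5:**
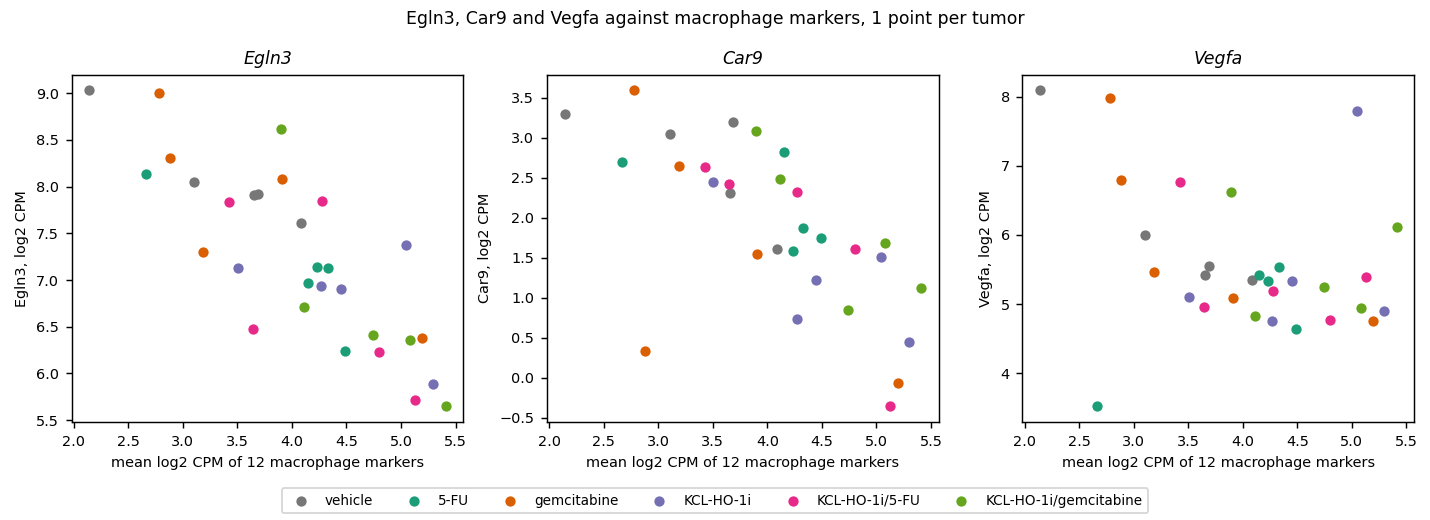
Log2 CPM of Egln3, Car9 and Vegfa (vertical axes) against the mean log2 CPM of 12 macrophage markers (horizontal axis), 1 point per tumor, colored by group. Egln3 is lower toward the right (r = -0.82), Car9 less so (r = -0.68), and Vegfa shows a weak relation (r = -0.33) with vehicle 3, gemcitabine 1 and KCL-HO-1i 4 above the rest.

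The machinery that senses oxygen was described next. Of 10 genes for HIF subunits and their regulators, 9 were tested and 0 were called in any comparison, with 1 of 9 at an unadjusted p under 0.05 among the 6 groups, against 18.7% of all genes. Hif1a, the main alpha subunit, ranged from 77.6 to 198 CPM over all tumors and had group means of 111 CPM under KCL-HO-1i/gemcitabine to 157 CPM under KCL-HO-1i/5-FU (adjusted p = 0.203 by edgeR). Its r with the mean standardised level of the 10 genes was 0.27, whereas Egln1, the main prolyl hydroxylase and a HIF target in its own right, had r = 0.80 and reached 201 CPM in KCL-HO-1i replicate 4. Epas1, the alpha subunit HIF2, ranged from 13.8 to 201 CPM (adjusted p = 0.555 by edgeR), Vhl from 24.1 to 55.9 CPM (0.564) and Hif1an, which hydroxylates an asparagine of HIF alpha, from 53.4 to 108 CPM (0.281).

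Of 17 further genes of glycolysis, glucose uptake and lactate export, 17 were tested and 0 were called, with 0 at an unadjusted p under 0.05 among the 6 groups, against 18.7% of all genes. Their median log2 fold change was -0.37 under 5-FU, against 0.00 over all genes, with 16 of 17 lower. It was -0.0092 under gemcitabine with 10 of 17 lower, -0.18 under KCL-HO-1i with 13, -0.14 under KCL-HO-1i/5-FU with 11 and -0.23 under KCL-HO-1i/gemcitabine with 14, and 0 of 17 were called in each. The smallest p values belonged to Pfkfb3, which makes the activator of phosphofructokinase, with group means from 31.1 CPM under 5-FU to 93.1 CPM under KCL-HO-1i (adjusted p = 0.409 by edgeR), to Hk2, hexokinase 2 (0.428), and to the enolase Eno1 (0.484). Pfkfb3 and Hk2 both peaked in KCL-HO-1i replicate 4, at 337 and 230 CPM, the tumor with the highest mitochondrial share.

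Of 25 other widely used HIF targets 24 were in the table and tested, and 0 were called by edgeR, with 4 of 24 at an unadjusted p under 0.05 among the 6 groups, a share near the 18.7% of all genes. Tfrc, the transferrin receptor, had the smallest p, with a mean of 197 CPM in vehicle and 62.8 CPM under KCL-HO-1i/5-FU (adjusted p = 0.0931 by edgeR). DESeq2 and limma-voom called Tfrc, where they called 7.01% and 1.84% of all genes. Loxl2, which cross-links collagen, had group means from 9.65 CPM in vehicle to 37.0 CPM under KCL-HO-1i/gemcitabine (adjusted p = 0.216 by edgeR), and Insig2, a regulator of sterol synthesis, from 41.2 CPM under gemcitabine to 53.9 CPM under KCL-HO-1i/5-FU (0.234).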

How the data were processed

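RNA of 30 MMTV-PyMT tumors was measured with a strand-specific library kit. Per the study's methods and the submitters' processing notes, the authors checked reads with FastQC 0.11.9, aligned with STAR 2.7.9a, quantified with Salmon 1.9.0, summed to genes with tximport and tested with DESeq2, on mm10; the annotation release was not given in the sources used here. The deposited values are estimated counts per gene (38.0% are not whole, although the methods speak of TPM), with 10067577 to 13622264 counts per library, and were rounded here. Low counts limit Ankrd37 and Car9, and intervals cover counting error only.

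Genes were kept by filterByExpr (minimum 10) and scaled by TMM. edgeR 4.0.16 (R 4.3.3) fitted 6 group means over all 30 libraries, with robust quasi-likelihood tests of 12 contrasts and of any difference, adjusted by Benjamini-Hochberg over 13663 genes, with a threshold of 0.05. Log2 CPM used a prior count of 2. The scripts were tested on simulated data. Alternatives were RLE scaling, DESeq2 1.42.0, limma-voom (limma 3.58.1), other filters, no rounding, a replicate block, only the groups compared, and leaving out each library. A further alternative took the first part of the code in each sample description as a covariate. What that part stands for is not stated, and several libraries of the same group share it. The main tests treated all libraries as independent. The numbers 1 to 5 are those of the sample titles, which do not say that they mark a shared animal, litter or day, and were not used to pair samples.

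All 10 genes are named, as are Hif1a, Epas1, Egln1 and Vhl, up to 3 genes per wider list with the smallest p, and the 6 outside genes most like the 10; fold changes are given where the unadjusted p was under 0.05 and for the inhibitor average. The members and lists were chosen with earlier results of these data known. Labels do not say more of how samples were kept apart than that 30 mice were used, and p-values measure the spread between these libraries.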

Additional observations from a re-analysis of the deposited data

Results flagged for a closer look

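Of 60 sets of 5 values (10 genes in 6 groups), 11 held a tumor whose gap to its nearest neighbour exceeded 0.71 of the whole range of its group. The 10 genes were measured in the same tumors, so the sets are not independent. No share over all genes was computed, so the count is a description only. In vehicle replicate 3, Vegfa was at 272 CPM (next highest 63.7), Bnip3 at 171 CPM (next 43.8) and Ndrg1 at 1028 CPM (next 205). In KCL-HO-1i replicate 4, Vegfa was at 221 CPM (next 40.2) and Pgk1 at 720.2 CPM (next 339). That library also had the highest mitochondrial share, at 9.69%, and 9549 CPM of adipocyte markers, and their part in these levels was not tested.

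In 5-FU replicate 4, Slc2a1 was at 46.4 CPM (next lowest 95.1), Ldha at 448 CPM (next 1486) and Ndrg1 at 38.4 CPM (next 232). Its luminal epithelial markers summed to 4455 CPM, the lowest of its group, and their part was not tested. In KCL-HO-1i/gemcitabine replicate 2, Slc2a1 was at 63.16 CPM (next lowest 87.9), beside 16155 CPM of fibroblast markers. Ankrd37 was at 6.11 CPM in KCL-HO-1i/5-FU replicate 5 (next 1.48) and at 4.46 CPM in KCL-HO-1i/gemcitabine replicate 3 (next 1.48).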

How the results depend on the processing

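The count of called members stayed at 0 in 517 of 518 alternatives over the 13 comparisons; the exception was 1 gene, Egln3, called by limma-voom for KCL-HO-1i/gemcitabine against vehicle. Pairing by replicate number was not supported by the labels: over 75 pairs with the same number the mean residual correlation was 0.0028 and 8 of 30 libraries matched their own number best. With the replicate block 0 members were called, and it changed no call.

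The inhibitor average of members that were not called changed sign under some settings. With the first part of the description code as covariate (13 codes, 7 in more than 1 group, meaning not stated) it was 0.13 for Vegfa, 0.17 for Slc2a1, 0.58 for Ldha, 0.47 for Pgk1, 0.20 for Adm, 1.25 for Ndrg1 and 0.091 for Ankrd37, and by limma-voom 0.22 for Ndrg1. The codes were spread unevenly, most lying only with or only without the inhibitor, so this covariate and the treatment are partly confounded. Leaving out single libraries gave -0.59 to 0.071 for Vegfa (0.071 without vehicle replicate 3, 0.026 without gemcitabine replicate 1), -0.53 to 0.15 for Adm (0.025 and 0.15 without the same libraries), -0.35 to 0.080 for Ndrg1 (0.080 without vehicle replicate 3) and -0.18 to 0.45 for Bnip3 (-0.18 without KCL-HO-1i replicate 4). Without both libraries highest in adipocyte and muscle markers, chosen after seeing the data, Bnip3 was at -0.34. The cause was not tested. The median SD between libraries was 0.87 to 0.98 and the median r 0.47 to 0.56 when single libraries were left out. Ankrd37 gave no value under the filter of a mean of 50 counts, and the inhibitor average already uses all groups.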

Other observations

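Among genes outside the lists, those most like the mean standardised level of the 10 genes, with group means removed, were Maff (r = 0.89, Spearman rho over all 30 tumors 0.581), Gys1 (r = 0.84), Lgr4 (r = 0.82), Mgarp (r = 0.82), Ciart (r = 0.80) and Cblb (r = 0.80). Maff encodes a small Maf transcription factor and reached 36.7 CPM in gemcitabine replicate 1 against a median of 8.49 CPM. Gys1, muscle-type glycogen synthase, was steadiest to the removal of the 2 most extreme tumors. With group means kept, its r was 0.85 over 30 tumors and 0.84 without those 2. Maff had 0.84 and 0.73 on this measure, and Cblb 0.77 and 0.58. The other genes peaked in vehicle replicate 3, Mgarp at 9.15 CPM against a median of 0.408 CPM. These 6 were picked as the highest of all tested genes, and their values are a description.

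Within the wider lists, Tpi1 (r = 0.90), the lactate exporter Slc16a3 (r = 0.89) and Egln1 (r = 0.80) followed the same score over 30 tumors, whereas Lox went the other way (r = -0.47). Lox, chosen here after its values were seen, had a mean of 11.4 CPM in vehicle, 40.5 CPM under KCL-HO-1i, 49.0 CPM under KCL-HO-1i/5-FU and 47.6 CPM under KCL-HO-1i/gemcitabine, with an inhibitor average of 1.53 (SE 0.48, adjusted p = 0.0716 by edgeR). It peaked at 172 CPM in KCL-HO-1i/5-FU replicate 3, a tumor with 8931 CPM of fibroblast markers, whose part was not tested. DESeq2 called Lox and Loxl2 for this average, where it called 8.38% of all genes. Without gemcitabine replicate 5 edgeR called both as well, and the share of all genes was not computed there.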
